A study of Mus musculus with 2 samples.

Results

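Transcripts of 10 genes of interleukin-1 (IL-1) and tumour necrosis factor (TNF) signalling were followed in mouse liver. They were the IL-1 family ligands Il1a, Il1b, Il18 and Il33, the IL-1 receptor antagonist Il1rn, the receptor Il1r1, the inflammasome genes Casp1 and Nlrp3, and Tnf and Tnfrsf12a of the TNF system. A gene entered when its symbol or a synonym was the gene name of a non-control probe in the files of both arrays. These 10 genes, of 22803 named on the array, had 11 probes and 29 spots, of 39429 probes and 43020 spots in all.

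The samples were livers of AID transgenic mice and of wild-type mice, both on the C57BL/6 background. AID stands for activation-induced cytidine deaminase, which in B cells turns cytosines of the antibody genes into uracils. On the AID transgenic array, the red channel (Cy5) held RNA of a liver exposed to thioacetamide, dissolved in the drinking water, over 6 months, and the green channel (Cy3) an untreated AID transgenic liver. The wild-type array was laid out in the same way, with a treated wild-type liver in Cy5 and an untreated wild-type liver in Cy3. Thioacetamide injures the liver after enzymes of the hepatocyte have oxidized it, and long exposure is a rodent model of fibrosis. The sources used here do not give the promoter that drives the transgene, the age and sex of the mice, or whether a channel held 1 animal or a pool.

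IL-1 alpha and IL-1 beta are proinflammatory cytokines that bind the receptor encoded by Il1r1, and the antagonist encoded by Il1rn occupies that receptor without signalling. IL-1 beta and IL-18 are made as precursors that caspase-1 (Casp1) cuts after an inflammasome, such as the one built on the sensor NLRP3, has assembled. IL-33 is a nuclear cytokine released by damaged cells, TNF is an inflammatory cytokine made largely by macrophages, and Tnfrsf12a encodes the receptor of the TNF family ligand TWEAK. In liver, macrophages (Kupffer cells and recruited cells) are a known source of IL-1 beta and TNF.

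Each value rests on the array's 60-base probes. The sequences shown are the first 30 of the 60 bases of the probes on which the results below turn, in lower case and as the files list them, to show which stretch of each transcript was read. The Il1b probe lies at chr2:129190347-129190406 on the minus strand of mm9, the build the files use, and the Tnf probe at chr17:35336795-35336854 on the minus strand. The Casp1 probe lies at chr9:5307206-5307265 on the plus strand, and the Il33 probe at chr19:30035101-30035160 on the plus strand. The Il1r1 probe lies at chr1:40372667-40372726 on the plus strand, and the Tnfrsf12a probe at chr17:23812746-23812805 on the minus strand. The sources used here do not say which exon or untranslated region these positions fall in.
Il1b probe: aggttcctataatatggatgagaattttta
Tnf probe: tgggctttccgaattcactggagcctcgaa
Casp1 probe: ctatgctgagaatcgtgccaataagaagcc
Il33 probe: gtgaatctgtacgatatctttaaagtagta
Il1r1 probe: tacttagatttcaccgtactttctgatggt
Tnfrsf12a probe: agccttccaaggtgtccaattgccctatct

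The promoters of Il1b and Tnf are shown because these cytokine genes had the most spots on the array and very different ratios. Each sequence holds the 250 bases before the annotated start, from RefSeq on GRCm38.p6, at chr2:129371140-129371389 on the minus strand for Il1b and at chr17:35202008-35202257 on the minus strand for Tnf. Capitals mark matches on either strand to 3 motifs, TATAAA (the TATA box), GGGNNNNNCC (a general form of the NF-kB site) and TGANTCA (AP-1), none of which overlapped another in these windows.
Il1b promoter: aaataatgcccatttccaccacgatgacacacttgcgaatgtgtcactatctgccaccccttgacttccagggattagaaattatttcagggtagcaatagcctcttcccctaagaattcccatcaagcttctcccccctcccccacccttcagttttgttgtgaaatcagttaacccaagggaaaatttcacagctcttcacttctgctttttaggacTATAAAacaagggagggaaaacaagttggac
Tnf promoter: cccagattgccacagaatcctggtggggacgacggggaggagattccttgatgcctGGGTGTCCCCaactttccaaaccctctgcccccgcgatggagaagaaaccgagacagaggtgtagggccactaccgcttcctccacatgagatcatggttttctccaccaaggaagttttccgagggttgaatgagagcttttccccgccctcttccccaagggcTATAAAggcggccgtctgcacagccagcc

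Il1b held a TATA box whose first base lay 31 bases before the start, and Tnf one at 29 bases. Tnf also held the NF-kB letters at 194 bases before the start, and neither window held the AP-1 letters. All 10 genes had a promoter in the table, with 15 windows among them. TATAAA occurred in 6 of these 15 windows and in 12.4% of all 32851 windows. GGGNNNNNCC occurred in 7 of the 15, among them those of Casp1 and Tnfrsf12a, which is 46.7% of them, and in 45.8% of all windows. TGANTCA occurred in 2 of the 15, of Il1a and Il1rn, and in 6.75% of all windows. A match is a run of letters and was not tested as a site.

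Facts of both arrays bear on every value below. Of 43020 non-control spots, 68.8% were well above background in the treated channel and 53.9% in the untreated channel of the AID transgenic array, against 68.4% and 56.0% on the wild-type array. Treatment and dye cannot be told apart, since no dyes were swapped, and with 1 array per genotype there is no replicate check and no p-value. On the wild-type array the Y-linked Ddx3y and Eif2s3y had treated over untreated log2 ratios of -4.60 and -5.27, against -0.11 and -0.05 on the AID transgenic array, and Xist, the RNA of the inactive X chromosome, had 2.67 on the wild-type array. On these transcripts the treated wild-type liver went against the other 3 livers, so sex cannot be told apart from treatment on the wild-type array. Treatment ratios of the AID transgenic array do not involve that liver. The comparison of the 2 untreated livers reads other livers, but levels were normalized with both channels of both arrays and so depend on it indirectly. The difference of the treatment ratios and the comparison of the treated livers involve the treated wild-type liver directly. In both of these, genotype and sex cannot be told apart. In whole liver, fewer cells of a type and less RNA per cell cannot be told apart.

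In treated AID transgenic liver, Il1b was the one gene of the 10 at least 2-fold from untreated liver, which is a log2 ratio of at least 1 in size, and it was higher. Of 16693 genes measured on that array, 2.16% were 2-fold in either direction. In treated wild-type liver 2 of the 10 were, Tnfrsf12a higher and Il1r1 lower, where 3.50% of 16663 genes were. Measured genes are those with a probe well above background in 1 or more of the channels compared. The median log2 ratio of the 10 genes was 0.21 on the AID transgenic array and -0.02 on the wild-type array, beside 0.03 for all genes on either array.

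**Figure D1:**
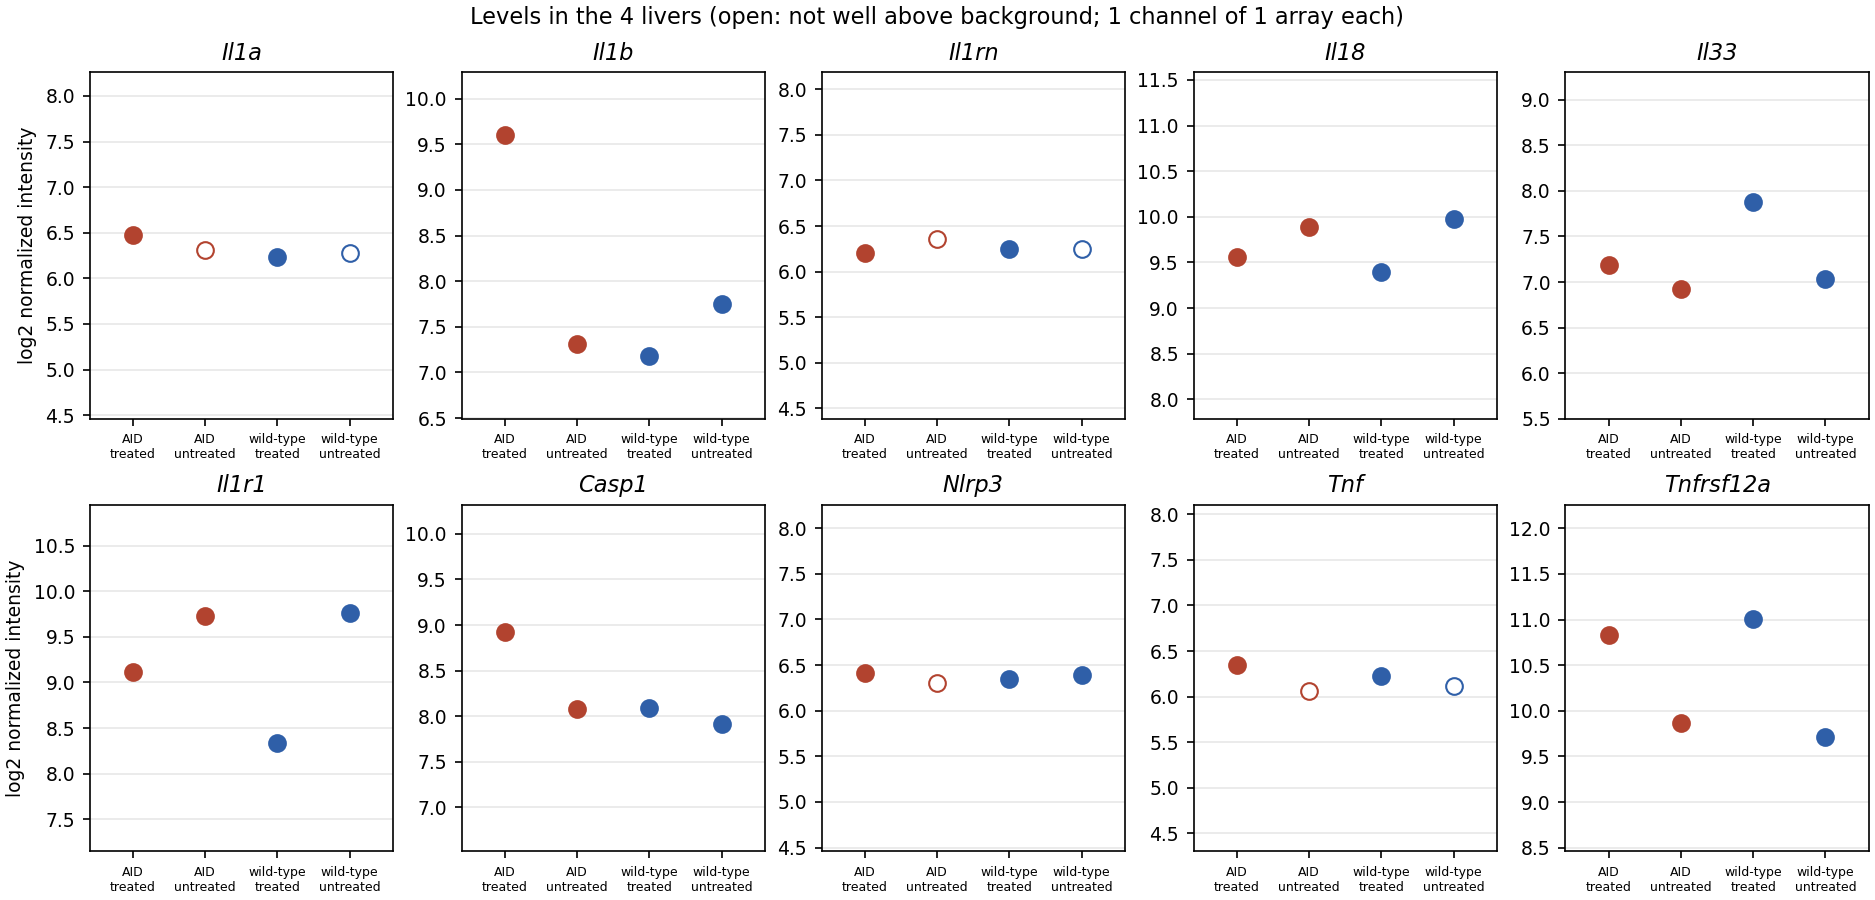
Log2 normalized intensity (vertical axis, the same span in every panel) of each gene in the treated and untreated AID transgenic livers (red) and the treated and untreated wild-type livers (blue), 1 point per liver, open where no probe was well above background. Il1b stands at 9.60 in treated AID transgenic liver and between 7.18 and 7.75 in the other 3 livers, while Il1a, Il1rn, Nlrp3 and Tnf lie near the detection limit in all 4.

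Il1b had a log2 level of 9.60 in treated AID transgenic liver, 7.31 in untreated AID transgenic liver, 7.18 in treated wild-type liver and 7.75 in untreated wild-type liver. The treated AID transgenic liver stood apart, and the other 3 lay within 0.57 of each other, with treated below untreated in the wild-type pair. The treated over untreated log2 ratio was 2.30 ± 0.37 in AID transgenic liver (4.91-fold), where ± gives the error that the scanner software estimated for its own ratio, a technical error. In wild-type liver it was -0.57 ± 0.23, which is a fold of 0.674. Il1b ranked 20 from the highest of 16693 genes on the AID transgenic array and 862 from the lowest of 16663 on the wild-type array.

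Il1b is read by 10 spots of the same probe on each array, which measures the error within an array. The kept spots of treated AID transgenic liver had unnormalized intensities of 875 to 1126, with a median of 1036, against 78.8 to 96.1 in untreated AID transgenic liver. In treated wild-type liver the spots had 174 to 218, against 131 to 165 in untreated wild-type liver. The unnormalized values of the wild-type pair thus lay in the opposite order to the normalized ratio. Over all spots well above background in both channels, the unnormalized ratio of Cy5 over Cy3 had a median of 2.05 on the AID transgenic and 2.03 on the wild-type array, and normalization removes this shift. The SD of the log2 ratio was 0.09 over 9 spots on the AID transgenic array, where the software marked 1 spot as an outlier, and 0.07 over 10 spots on the wild-type array. Both SDs are small beside the ratios, but they cover spots of 1 hybridization, not mice.

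**Figure D2:**
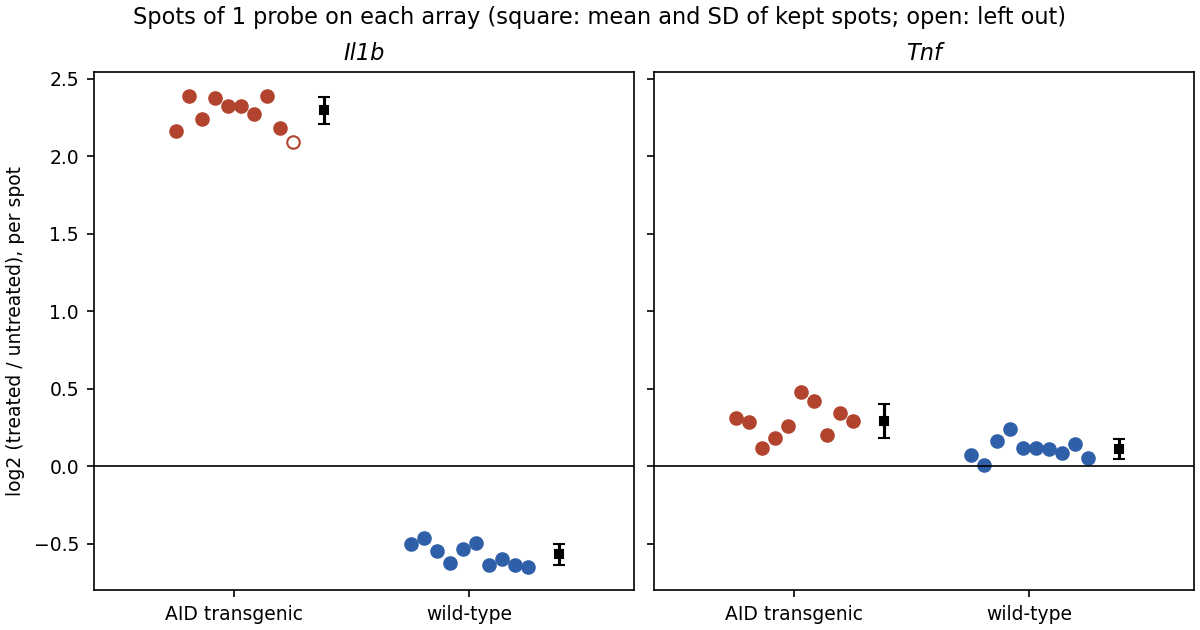
Treated over untreated log2 ratio (vertical axis) of each spot of the Il1b and the Tnf probe on the AID transgenic and the wild-type array, with the mean and SD of the kept spots as a square with bars and the spot left out as an open circle. The Il1b spots of the arrays are far apart (means 2.30 and -0.57), whereas the Tnf spots of both lie close to 0 (means 0.29 and 0.11).

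Il1a, the other agonist ligand of the receptor, had log2 levels of 6.48 and 6.31 in treated and untreated AID transgenic liver, and 6.24 and 6.28 in treated and untreated wild-type liver. It was well above background only in the treated livers, and its ratios of 0.17 ± 0.62 and -0.04 ± 0.79 were smaller than these errors. With the scanner's processed signals, to which the errors belong, its ratios were 1.75 in AID transgenic and 1.06 in wild-type liver, larger than the errors. Il1rn likewise was well above background only in the treated livers, with levels of 6.21 and 6.36 in treated and untreated AID transgenic liver and 6.24 and 6.25 in the wild-type pair. Its ratios were -0.15 ± 0.55 in AID transgenic and -0.01 ± 0.50 in wild-type liver. With the processed signals the ratios of Il1rn were -0.98 in AID transgenic and -0.74 in wild-type liver, larger than the errors. Whether the antagonist differed thus depended on the processing at this signal.

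Il18 was well above background in all 4 livers, at 9.56 and 9.89 in treated and untreated AID transgenic liver and at 9.40 and 9.97 in treated and untreated wild-type liver. Its ratios of -0.33 ± 0.21 and -0.58 ± 0.21 were both below 0, but turned to 0.31 and 0.08 when the arrays were centred on their median instead of by loess. That setting, here and below, also moved the median of all genes, to 0.34 in AID transgenic and 0.35 in wild-type liver. Il33 had 7.18 and 6.92 in treated and untreated AID transgenic liver, and 7.88 and 7.03 in treated and untreated wild-type liver, so the treated wild-type liver was the highest. The Il33 ratio was 0.26 ± 0.25 in AID transgenic and 0.84 ± 0.26 in wild-type liver, where it passed 2-fold with an offset of 0 (1.23), with the scanner's processed signals (1.56) and with median centring (1.18).

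Il1r1, the signalling receptor of both IL-1 ligands, was lower in the treated liver of each pair. Its levels were 9.12 and 9.73 in treated and untreated AID transgenic liver, and 8.34 and 9.76 in treated and untreated wild-type liver. The untreated livers lay close together and the treated wild-type liver was the lowest of the 4. The ratios were -0.61 ± 0.22 in AID transgenic liver, a fold of 0.654, and -1.42 ± 0.26 in wild-type liver, a fold of 0.373. With median centring they became 0.01 and -0.81, so neither the direction in AID transgenic liver nor the size of 2-fold in wild-type liver held under that setting. In wild-type liver Il1r1 ranked 129 from the lowest of 16663 genes.

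Casp1, the protease that cuts the precursors of IL-1 beta and IL-18, had levels of 8.93 and 8.08 in treated and untreated AID transgenic liver, and 8.09 and 7.92 in treated and untreated wild-type liver. The treated AID transgenic liver was the highest, and the other 3 lay between 7.92 and 8.09. The ratio was 0.85 ± 0.23 in AID transgenic liver (1.80-fold) and 0.17 ± 0.21 in wild-type liver, about the size of its error. Nlrp3, the sensor, was read by 2 probes near the detection limit, with mean levels of 6.42 and 6.30 in treated and untreated AID transgenic liver and 6.35 and 6.39 in the wild-type pair. Its 2 probes gave 0.06 and 0.17 on the AID transgenic array and -0.12 and 0.05 on the wild-type array, where they differed in sign.

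Tnf was near the detection limit in every liver, at 6.35 and 6.06 in treated and untreated AID transgenic liver and at 6.22 and 6.11 in the wild-type pair. Of its 10 spots, 10 were well above background in treated AID transgenic liver and 7 in treated wild-type liver, against 0 in either untreated liver. Unnormalized, its spots had 70.2 to 84.6 in treated AID transgenic liver, where 153 negative control spots had 50.2 to 81.5, and 38.9 to 49.7 in untreated AID transgenic liver, where the controls had 31.8 to 55.8. The log2 ratio was 0.29 ± 0.86 in AID transgenic liver, with an SD of 0.11 over 10 spots. In wild-type liver it was 0.11 ± 0.92, with an SD of 0.06 over 10 spots. Both ratios were smaller than these errors, which the software gave for the ratio of its own processed signals. With those signals the ratios in AID transgenic and wild-type liver were 1.51 and 1.31, larger than the errors. With median centring they were -0.02 and -0.24. Whether Tnf differed thus depended on the processing at this signal.

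Tnfrsf12a was higher in the treated liver of both genotypes. Its levels were 10.83 and 9.86 in treated and untreated AID transgenic liver, and 11.01 and 9.71 in treated and untreated wild-type liver, so both treated livers lay above both untreated livers. The ratio was 0.96 ± 0.22 in AID transgenic liver (1.95-fold) and 1.30 ± 0.24 in wild-type liver (2.45-fold). They differ by -0.33 ± 0.33, about the size of the technical error. The ligand gene Tnfsf12 (TWEAK) had -0.12 ± 0.16 in AID transgenic and -0.18 ± 0.15 in wild-type liver, turning to 0.30 and 0.27 with median centring.

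**Figure D3:**
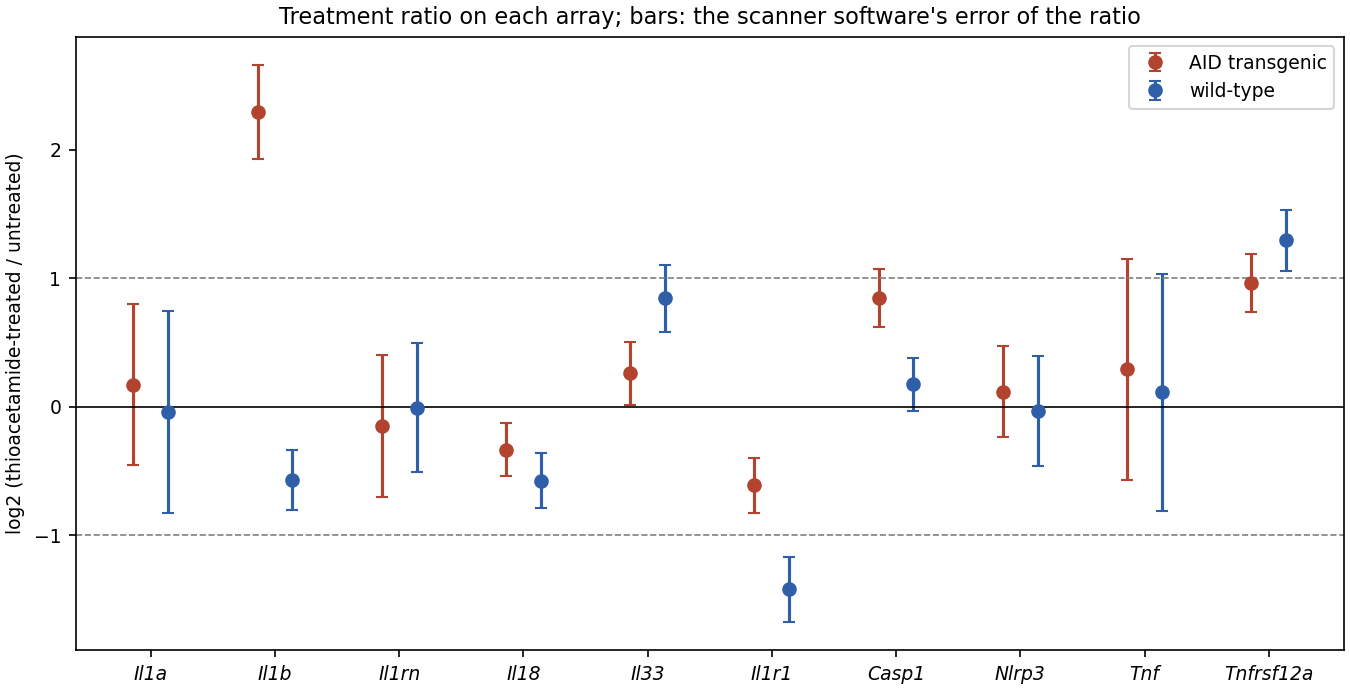
Treated over untreated log2 ratio (vertical axis) of each gene on the AID transgenic (red) and the wild-type array (blue), with the scanner software's error as bars and dashed lines at 2-fold. Il1b lies at 2.30 and -0.57, Tnfrsf12a above 0 on both arrays (0.96 and 1.30) and Il1r1 below 0 on both (-0.61 and -1.42), and the bars of Il1a, Il1rn, Nlrp3 and Tnf cross 0.

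The difference between the treatment ratios, AID transgenic minus wild-type, asks where the genotypes responded differently. Il1b was the one gene of the 10 with a difference of 2-fold, where 1.98% of 17107 genes had one. Its difference was 2.86 ± 0.43 on the log2 scale and ranked 13 from the highest of 17107. Il1r1 had 0.81 ± 0.33 and Casp1 0.68 ± 0.31, both above 0, and Il33 had -0.59 ± 0.36. The other 6 genes had differences between -0.33 and 0.24, about the size of their errors or smaller.

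Compared within a channel across the arrays, 0 of the 7 measured genes were 2-fold between untreated AID transgenic and untreated wild-type liver, where 0.602% of 14297 genes were. Their log2 differences, AID transgenic over wild-type, ran from -0.44 for Il1b to 0.16 for Casp1. Untreated Il1b reached -1.22 with the scanner's processed signals. Between the treated livers, Il1b alone of the 10 was 2-fold, at 2.42 (5.37-fold), where 1.49% of 17079 genes were. Casp1 followed at 0.84 and Il1r1 at 0.78, and Il33 was lowest at -0.69. For Il1b the larger difference between genotypes thus lay in the treated livers, and the smaller one, of opposite sign, in the untreated livers. Between the treated livers, Eif2s3y had 5.17 and Xist -2.88, so genotype cannot be told apart from sex there.

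Of 136 other genes of these pathways, 135 were on the array, 111 were measured in AID transgenic and 109 in wild-type liver. In treated AID transgenic liver 6 of the 111 were 2-fold higher, where 1.22% of all genes were, and 0 were 2-fold lower, where 0.947% were. In treated wild-type liver 4 of the 109 were 2-fold higher, where 1.86% of all genes were, and 0 were 2-fold lower, where 1.64% were. Their median log2 ratio was 0.18 in AID transgenic and 0.13 in wild-type liver, beside 0.03 for all genes. The count of higher genes moved with the processing, to 24 and 17 with median centring and to 24 and 14 with the processed signals, which also gave 2 lower genes in wild-type liver. Of all genes, 8.14% and 10.4% were then 2-fold higher with median centring, and 9.09% and 9.46% with the processed signals.

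The targets of NF-kB, the transcription factor that both IL-1 and TNF receptors activate, held 3 of the 6. Cxcl1, a chemokine that attracts neutrophils, had levels of 9.18 and 7.83 in treated and untreated AID transgenic liver, and 9.08 and 8.96 in treated and untreated wild-type liver. The low value was that of untreated AID transgenic liver, whose log2 difference from untreated wild-type liver was -1.13. The ratio of Cxcl1 was therefore 1.35 ± 0.26 in AID transgenic and 0.11 ± 0.20 in wild-type liver, while its treated livers differed by 0.10.

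Ccl2, which attracts monocytes, was 2-fold higher in both genotypes, with 1.30 ± 0.29 in AID transgenic and 1.06 ± 0.26 in wild-type liver. Tnfaip2, a TNF-induced gene, had 1.11 ± 0.17 and 0.67 ± 0.15. Of 24 such targets 18 were measured in AID transgenic liver, with a median of 0.37, and 17 in wild-type liver, with a median of 0.33. Between the untreated livers 12 of the 24 were measured, and between the treated livers 18. Some targets thus entered through the treated channel alone, which can raise these medians. The lowest of the measured targets were Nos2 at -0.03 in AID transgenic liver, 0.42 with median centring, and Zc3h12a at -0.39 in wild-type liver. Ptgs2, Cxcl2, Csf2 and Csf3, also induced by IL-1 in many cells, were not well above background in any of the 4 livers; they were picked out after their values were seen.

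Among NF-kB subunits and inhibitors, Bcl3, a nuclear regulator of NF-kB, was 2-fold higher in AID transgenic liver and not 2-fold in wild-type liver. Its levels were 12.49 and 11.29 in treated and untreated AID transgenic liver, and 11.82 and 11.68 in treated and untreated wild-type liver, with ratios of 1.20 ± 0.23 and 0.14 ± 0.20 and a difference of 1.06. Nfkbia, which encodes the inhibitor IkB alpha, had -0.69 ± 0.21 and -0.14 ± 0.20, with -0.01 in AID transgenic liver under median centring. Nfkbiz had -0.22 and Tnfaip3, a brake on NF-kB, 0.49 in wild-type liver, the ends of that list there.

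On the IL-1 side, the 5 other family ligands (Il1f5, Il1f6, Il1f8, Il1f9 and Il1f10, the first 4 known also as Il36rn, Il36a, Il36b and Il36g) were not well above background in any liver. Of 8 receptors and binding proteins, 4 were measured in AID transgenic and 6 in wild-type liver, and 0 were 2-fold. Il18bp, the secreted protein that neutralizes IL-18, had 9.96 and 8.97 in treated and untreated AID transgenic liver and 9.13 and 9.12 in the wild-type pair, so its ratio of 0.98 ± 0.23 lay just inside the 2-fold limit, against 0.00 ± 0.20 in wild-type liver. The accessory receptor Il1rap was lowest, at -0.21 ± 0.36 in AID transgenic liver, 0.09 with the processed signals, and at -0.48 ± 0.34 in wild-type liver. Sigirr, an inhibitory receptor, was highest in wild-type liver at 0.37 ± 0.21.

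Of 19 other inflammasome and pyroptosis genes, 19 were measured in AID transgenic and 18 in wild-type liver, and 1 was 2-fold, Gsdme in wild-type liver. Gsdme, a gasdermin that forms pores in dying cells, had 7.33 and 7.36 in treated and untreated AID transgenic liver and 8.62 and 7.22 in the wild-type pair. Its ratios were -0.03 ± 0.22 and 1.39 ± 0.29, a difference of -1.43, which is opposite in sign to that of Il1b. Casp4, the caspase of the noncanonical inflammasome, was the highest in AID transgenic liver at 0.86 ± 0.16, against 0.19 ± 0.15 in wild-type liver, close to the values of Casp1. The lowest were Nlrp6 at -0.42 ± 0.21 in AID transgenic liver, 0.23 with median centring, and Gsdmd at -0.66 ± 0.22 in wild-type liver, -0.01 with median centring.

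Of 14 genes of IL-1 receptor signalling through MyD88 and the IRAK kinases, all were measured. Their median was -0.01 in AID transgenic and -0.09 in wild-type liver, and 0.57 and 0.39 with median centring. The median of all genes was then 0.34 and 0.35. Ikbkg, which encodes the regulatory subunit of the IkB kinase, was highest in both, at 0.94 ± 0.17 and 1.12 ± 0.17, and was the 1 gene of the list at 2-fold. The lowest were the kinase genes Ikbkb at -0.31 in AID transgenic liver, 0.24 with median centring, and Chuk at -0.38 in wild-type liver, 0.35 with median centring.

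On the TNF side, Tnfrsf10b, a death receptor for the ligand TRAIL, had levels of 8.15 and 7.06 in treated and untreated AID transgenic liver and of 9.43 and 7.12 in treated and untreated wild-type liver. Both treated livers lay above both untreated livers, with ratios of 1.09 ± 0.29 and 2.32 ± 0.38 and a difference of -1.23. It was the one gene of 24 other TNF family receptors at 2-fold. Tnfrsf1b, the second TNF receptor, was the lowest, at -0.21 in AID transgenic liver, 0.20 with median centring, and at -0.71 ± 0.23 in wild-type liver.

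Of 16 other TNF family ligands 15 were on the array, 9 were measured in AID transgenic and 7 in wild-type liver, and 0 were 2-fold. Ltb, which encodes lymphotoxin beta, was the highest, at 0.62 ± 0.22 and 0.82 ± 0.23. Of 15 genes of TNF receptor signalling, the adaptor Traf5 was 2-fold higher in AID transgenic liver, at 1.01 ± 0.24 against 0.61 ± 0.22 in wild-type liver. The lowest there were Fadd at -0.16 in AID transgenic liver, 0.36 with median centring, and Cflar at -0.23 in wild-type liver, 0.30 with median centring. Mlkl, which carries out necroptosis, was the highest in wild-type liver at 0.86 ± 0.23, against 0.64 ± 0.22 in AID transgenic liver.

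**Figure D4:**
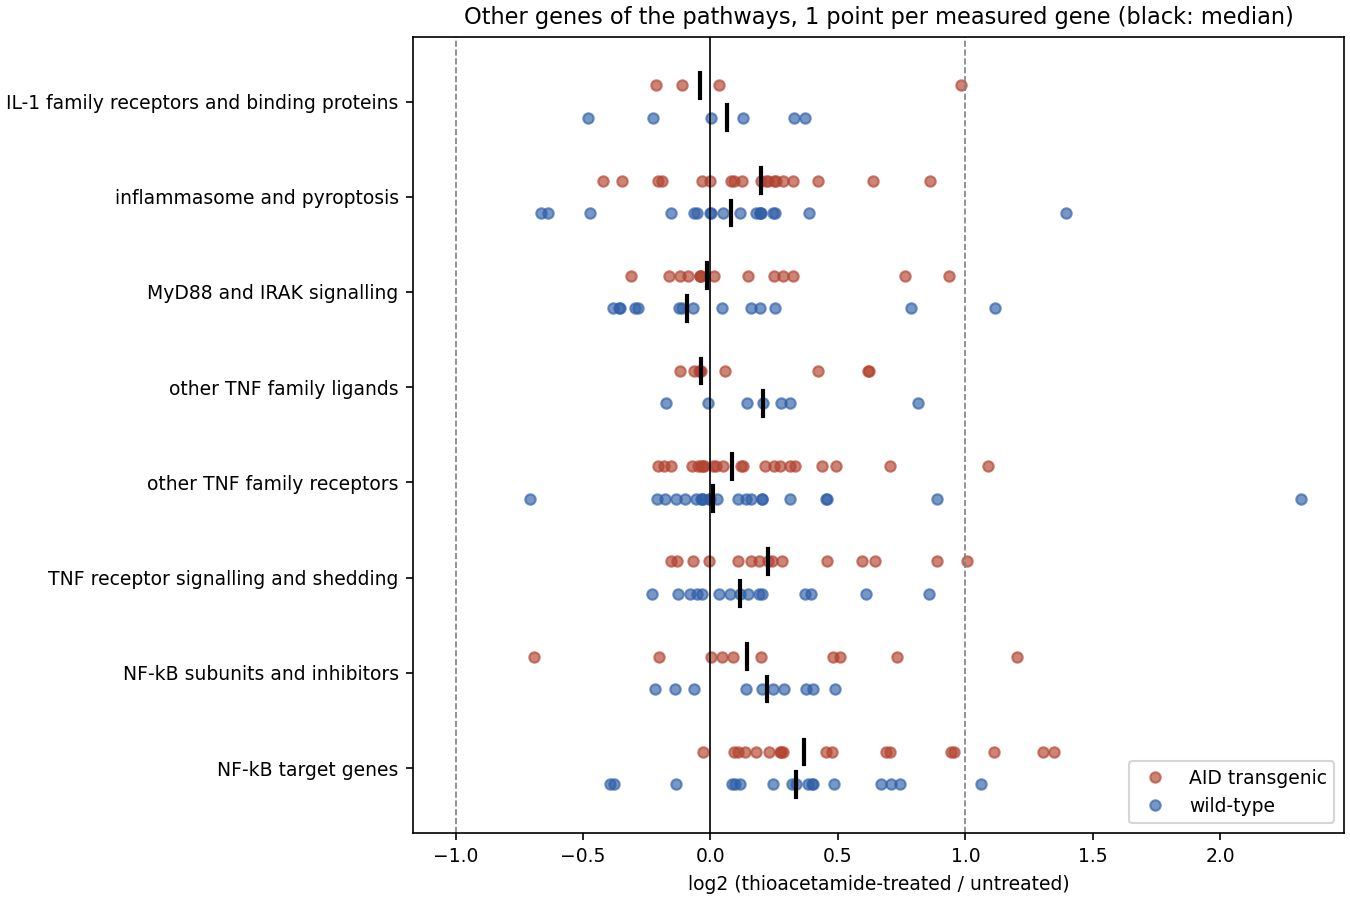
Treated over untreated log2 ratio (horizontal axis) of each measured gene of 8 pathway lists on the AID transgenic (red, upper row) and the wild-type array (blue, lower row), with list medians in black and dashed lines at 2-fold. The NF-kB targets have the highest medians, 0.37 and 0.33, and no gene lies below -1 on either array. Genes well above background in the treated channel alone are included, which can raise the medians.

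Markers of macrophages, neutrophils and monocytes differed between the lists and within them. For other cells, median log2 ratios in AID transgenic and wild-type liver were 0.15 and -0.04 for T and NK cells and 0.18 and 0.16 for B cells. They were 0.03 and -0.18 for endothelium and -0.37 and 0.24 for stellate cells. For cholangiocytes they were -0.12 and 0.08, and for hepatocytes -0.62 and -0.94. The part of these other cells in the values of the 10 genes was not tested. Of 13 markers of Kupffer cells and macrophages, all were measured. In treated AID transgenic liver 3 were 2-fold higher, where 1.22% of all genes were, and in treated wild-type liver 0, where 1.86% were. The medians of the 13 were 0.65 and 0.09, beside 0.03 for all genes on either array, with 12 and 8 of the 13 above 0. The medians were above 0 under all 4 processing settings, but median centring also put the median of all genes at 0.34 and 0.35. The 3 at 2-fold were Cd5l at 1.48 ± 0.25, Vsig4 at 1.12 ± 0.23 and Clec4f, against 0.15 for Cd5l and 0.71 for Vsig4 in wild-type liver. Clec4f had levels of 12.60 and 11.59 in treated and untreated AID transgenic liver and 11.76 and 11.75 in the wild-type pair. The ratio was higher on the AID transgenic array for 12 of the 13 and not for Marco, at 0.65 and 0.76. Cd68 had 0.00 and -0.16, and Mertk 0.26 and 0.22. Marco was 5.81-fold higher in untreated AID transgenic than in untreated wild-type liver and 5.36-fold higher between the treated livers. The log2 of the summed level of all 13 was 15.48 in treated and 14.51 in untreated AID transgenic liver, against 14.39 and 14.17 in treated and untreated wild-type liver. Without Marco, left out after its values were seen, it was 15.13 and 14.06 in treated and untreated AID transgenic liver, against 14.26 and 14.08 in the wild-type pair. The part of these cells in the Il1b and Casp1 values was not tested.

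Of 11 neutrophil markers 7 were measured on each array, with medians of 0.01 in AID transgenic and -0.21 in wild-type liver, and they did not move together. S100a9 had 1.60 ± 0.27 in AID transgenic and -0.51 ± 0.22 in wild-type liver, 0.03 there with median centring, and S100a8 had 0.79 ± 0.28 and -0.30 ± 0.24. Ly6g had the opposite signs, -0.22 ± 0.21 and 0.22 ± 0.21, Csf3r had 0.57 and 0.29, and Camp had -0.20 and -0.36. Mpo, Ngp, Mmp8 and Cxcr2 of the same list were not well above background in any liver. Of 7 monocyte markers on the array, all were measured, with medians of 0.17 and 0.19 and none at 2-fold. The log2 of the summed level of neutrophil markers was 15.13 and 14.60 in treated and untreated AID transgenic liver and 14.95 and 14.71 in the wild-type pair. Most of that sum was Csf3r, and without it, left out after its values were seen, it was 11.82 and 11.60 in treated and untreated AID transgenic liver and 11.71 and 11.75 in the wild-type pair. The part of these cells in the Il1b value was not tested.

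Of the 10 genes, Il1a and Tnf moved the most under other processing of the same scans. Il1b ranged from 2.30 to 3.24 in AID transgenic and from -0.99 to -0.23 in wild-type liver. Tnf ranged from -0.02 to 1.51 in AID transgenic and from -0.24 to 1.31 in wild-type liver, and Il1a from -0.01 to 1.75 and from -0.32 to 1.06. Tnfrsf12a was 0.96 to 1.63 and 1.30 to 1.97, and Casp1 0.85 to 1.38 and 0.17 to 0.65.

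**Figure D5:**
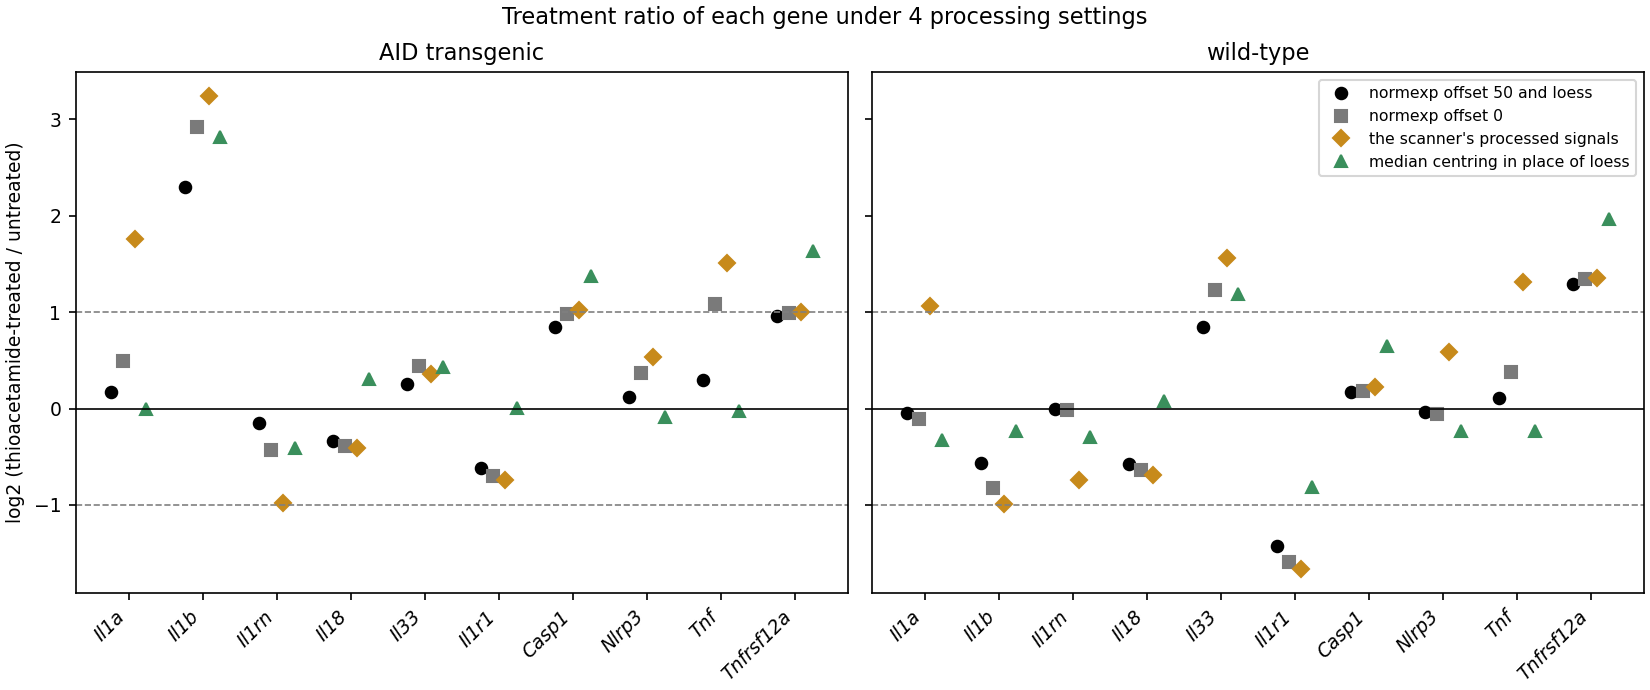
Treated over untreated log2 ratio (vertical axis) of each gene under 4 processing settings (symbols) on the AID transgenic and the wild-type array, with dashed lines at 2-fold. Il1b stays above 2-fold on the AID transgenic array and below 0 on the wild-type array under each of the 4, whereas Tnf and Il1a cross both 0 and the 2-fold line.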

How the data were processed

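The authors deposited the scanner output of 2 Agilent 2-colour arrays that shared 1 slide and 1 scan. Per the file headers, the mean signal and the local background of each spot are raw intensity values. Intensity values also make up the deposited processed signal, after background subtraction and dye normalization by the scanner software. The deposited log10 ratio is Cy5 over Cy3 of those processed signals, and the deposited value table equals it on all 44397 features of each array. Its deposited error, in log10 units, is a score of the software's error model, and was turned to log2 here. That software is Agilent Feature Extraction 10.7.3.1 in the headers, while the submitters' processing notes name 10.5.1.1.

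Background was corrected on the mean signals by normexp (offset 50), and the ratios were normalized by loess within arrays in R 4.3.3 with limma 3.58.1, with weight 0 for control and outlier spots, which were then left out (207 outliers on the AID transgenic and 197 on the wild-type array). Aquantile normalization gave the levels and the comparisons across arrays. Spots were averaged per probe and probes per gene, in Python 3.11.15 with pandas 2.3.3. A probe counted as well above background when at least 50% of its kept spots did. Of 39429 probes, 30180 were named through RefSeq symbols of GRCm38.p6.

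With 1 array per genotype no test was run, and genes were described by a log2 size of at least 1. The number of arrays limits the precision, and ± covers technical error only. The error of a difference combines those of both arrays. The 10 genes, the pathway and marker lists, and the rule for named genes were chosen with earlier results of these data known. That rule names the 10 genes, each listed pathway gene at 2-fold in 1 of the 5 comparisons, and the ends of each list on each array. The steps were checked on simulated ratios, in which planted changes came out smaller than planted. Alternatives were an offset of 0, the processed signals, median centring, the brightest probe of a gene, and only probes well above background in every channel. Genotypes are as the labels give them, and the check of the targeted gene is not reported here.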

Additional observations from a re-analysis of the deposited data

Results flagged for a closer look

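Il1b had treated over untreated log2 ratios of opposite sign in the genotypes, 2.30 in AID transgenic and -0.57 in wild-type liver. The difference of 2.86, AID transgenic minus wild-type, was not tested, since each genotype had 1 array. It ranged from 2.86 to 4.23 over the processing settings. Macrophage markers had median ratios of 0.65 in AID transgenic and 0.09 in wild-type liver, from Cd68 at 0.00 to Cd5l at 1.48 in AID transgenic liver, and neutrophil markers 0.01 and -0.21, from Ly6g at -0.22 to S100a9 at 1.60. Their part in the Il1b difference was not tested. On the wild-type array treatment and sex cannot be told apart, and neither can genotype and sex in the Il1b difference.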

How the results depend on the processing

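The number of the 10 genes at 2-fold depended on the background correction and normalization. In treated over untreated AID transgenic liver it was 1 as reported, 2 with an offset of 0 (Il1b and Tnf), 5 with the scanner's processed signals (Il1a, Il1b, Casp1, Tnf and Tnfrsf12a) and 3 with median centring (Il1b, Casp1 and Tnfrsf12a). In wild-type liver it was 2 as reported, 3 with an offset of 0 (Il33 added), 5 with the processed signals (Il1a, Il33, Il1r1, Tnf and Tnfrsf12a) and 2 with median centring (Il33 in place of Il1r1). Of all genes in AID transgenic and wild-type liver, 5.33% and 7.13% were 2-fold with an offset of 0, 11.9% and 13.1% with the processed signals and 8.45% and 10.99% with median centring, against 2.16% and 3.50% as reported. With the processed signals the difference of the ratios gave 2 (Il1b and Il33), the untreated livers 1 (Il1b, at -1.22) and the treated livers 4 (Il1a, Il1b, Il33 and Casp1), where 10.2%, 2.93% and 5.39% of all genes were 2-fold in those comparisons, in that order. The cause was not tested. Of the 47 values of single genes, 42 moved by less than the scanner's error with an offset of 0, 31 with the processed signals and 36 with median centring, and 5 and 7 changed sign under the last 2 settings, none of them 2-fold as reported. Taking the brightest probe, or only probes above background in every channel, cannot change the value of the 9 genes with 1 probe, by construction, so neither is a check of them. Median centring put the median of all genes at 0.34 in AID transgenic and 0.35 in wild-type liver and the share of higher genes among those at 2-fold at 96.2% and 94.4%, against 56.2% and 53.1% as reported, 69.7% and 65.8% with an offset of 0, and 76.2% and 72.3% with the processed signals. Signal over background limits Il1a, Il1rn, Nlrp3 and Tnf, none of which was well above background in untreated AID transgenic liver. Leaving out a replicate and a slide block could not be run, with 1 array per genotype on 1 slide. No paired analysis was possible because each genotype had 1 array.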
